A study of Mus musculus with 9 samples.

Results

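The mitochondrial ribosomal proteins were followed in the hearts of mice as the genes whose symbol begins with Mrpl or Mrps and a number. Of the 13890 genes with counts, 77 had such a symbol. All 77 passed the filter on low counts, with the least abundant member, Mrps11, at a mean of 214 counts per library. They comprised 50 proteins of the large subunit, 26 of the small subunit, and Mrps36, which carries the name but belongs to the 2-oxoglutarate dehydrogenase complex. Mrps30 and Mrps18a carry small-subunit names but sit in the large subunit, and they were counted there.

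The hearts came from NSG mice, a strain that lacks mature lymphocytes and accepts human cells. All were males labelled as 8 weeks old, and the labels place collection 3 weeks after surgery. The 3 groups each held 3 animals: sham-operated mice (S, animals 2, 3 and 5), mice labelled as hosts of HCT116, a human colorectal cancer line delivered through the spleen (T, animals 11, 12 and 15), and hosts labelled as also given ACVR2B/Fc, a soluble receptor that binds activins and myostatin (A + T, animals 20, 21 and 22). No group labelled as given ACVR2B/Fc without a tumour was analysed here. The model rests on a single cell line in a host without an adaptive immune system.

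The label T needs a caution that bears on each value below. Gene by gene, the fold changes of these 3 libraries from S matched the column that the study's heart gene table heads as ACVR2B vs. sham, and not the column headed HCT vs. sham. The fold changes of A + T from T did not follow the column for treated against untreated hosts either, and those of A + T from S followed no column closely. Whether the library labels or the column headings are at fault cannot be told apart here, and no gene was deleted or targeted that would settle it. A direction given for T or for A + T, against S or against each other, is therefore that of the libraries so labelled.

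Mitochondria carry their own ribosome, which translates the few messenger RNAs encoded by mitochondrial DNA into membrane subunits of the respiratory chain and of ATP synthase. Its RNAs are made in the organelle, while its proteins are encoded in the nucleus, translated in the cytosol and imported. Many of these proteins descend from bacterial ribosomal proteins and others are found only in mitochondria. The heart depends on oxidative phosphorylation, and inherited defects of several of these genes cause cardiomyopathy in humans.

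Library totals ran from 12392222 to 19732471 counts, and the members held 0.303% to 0.404% of them. The ribosomal RNA precursor Rn45s took 4.57% to 19.6% of the counts. The summed level of 6 cardiomyocyte markers was 55340 to 61070 TMM-scaled CPM in S, 45320 to 52960 in T, with 38700 to 55840 in A + T. All 6 had counts in every library, but they did not move together: in T vs. S Tnnt2 and Pln rose (log2 fold changes of 0.34 and 0.38) and Actc1 fell (-0.90), with edgeR adjusted P-values of 0.0360, 0.0415 and 0.0128. CPM are counts relative to the library total, and TMM is a scaling between libraries that sets the bulk of the genes level. The 3 endothelial markers summed to 581 to 691.8 in S, 336.7 to 425.3 in T, with 449.3 to 525.8 in A + T, the 3 fibroblast markers to 1037 to 1230, 708.9 to 839.4 and 838.1 to 1176, and the 2 smooth muscle markers to 114.4 to 136.2, 50.81 to 81.86 and 65.86 to 75.82. The 3 macrophage markers summed to 59.13 to 68.79 in S, 55.64 to 63.01 in T, with 91.43 to 140.1 in A + T. An atrial list, a sign of how the heart was cut, ran from 2908 to 2970 in S, 859.4 to 4553 in T, with 793.2 to 2003 in A + T. Of 2 airway and lung markers, 1 was in the counts: the club cell gene Scgb1a1, at 0 to 1.37 in S, 0.06196 to 79.95 in T, with 0 to 1079 in A + T. The 3 adipocyte markers summed to 1.051 to 15.77 in S, 1.31 to 68.18 in T, with 1.292 to 6.555 in A + T, and of 3 erythroid markers only Alas2 was in the counts, at 70.8 to 147.3, 120.2 to 284.5 and 68.4 to 341.2. The endothelial, fibroblast and smooth muscle sums of T lay below those of S, the macrophage sums of A + T lay above both, and the atrial sums of A + T lay below S while those of T lay on both sides of it. The high values of the lung and adipocyte markers were those of single libraries, and the groups overlapped in the erythroid marker. The part of these markers in the member results was not tested. In whole-heart RNA, fewer cells of a type and less RNA per cell cannot be told apart.

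The members differed widely in level. Levels between genes were compared per length, as RPKM (reads relative to gene length and library total), taken back from the deposited log2 values. The members' mean over 9 libraries ranged from 5.58 for Mrpl17 to 339 for Mrpl42, a 60.7-fold range, with a median of 32.1. The 50 large-subunit members had a median of 32.8 and the 26 small-subunit members a median of 29.6. Members of bacterial families had a median of 35.5, and those of families named as mitochondrial 29.7. Families were taken by their names, so Mrps18a and Mrps18b counted as mitochondrial and their paralog Mrps18c as bacterial. The 77 genes listed by symbol as cytosolic ribosomal proteins lay higher, with a median of 180. The 79 nuclear genes listed by symbol as subunits of oxidative phosphorylation lay higher again, with a median of 433.

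Mrpl42, a large-subunit protein found only in mitochondria, headed the list with 347 ± 11.6 RPKM in S, 314 ± 28.6 in T, with 355 ± 28.2 in A + T (mean ± SD, n = 3). It was followed by Mrpl30 (176 ± 16.8, 198 ± 16.2 and 179 ± 19.4) and by Mrps21 (119 ± 10.7, 132 ± 18.7 and 138 ± 8.61), both of bacterial families. The gaps between these 3 were wider than the spread within any group. At the other end, Mrpl17 (5.74 ± 0.214 in S), Mrpl19 (7.36 ± 0.474) and Mrpl57 (6.89 ± 0.192) were the lowest of the 77. The gap between Mrpl19 and Mrpl57 in S was no wider than their spread. The level is per length of the annotated gene, and the 2 lowest members had long models, of 6750 and 5028 bases.

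**Figure D1:**
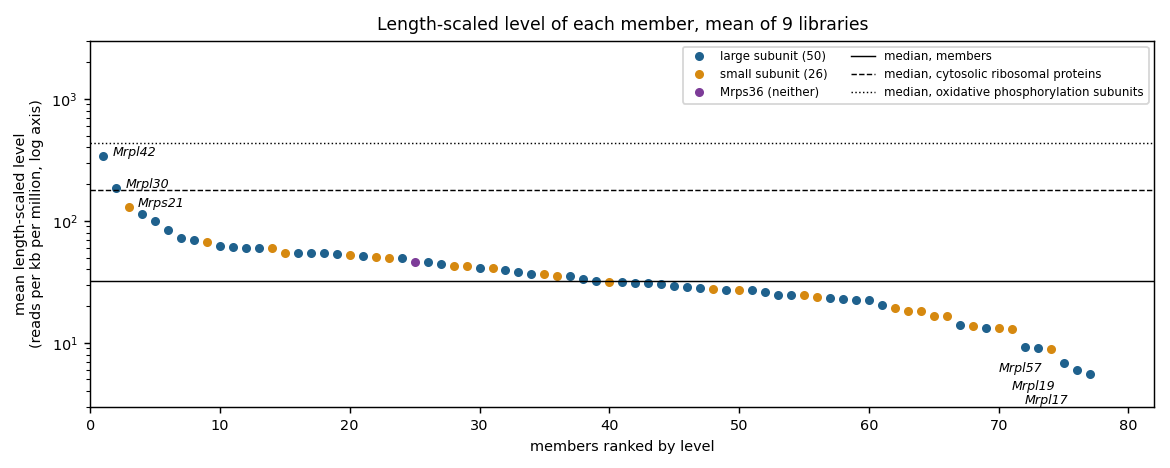
Mean length-scaled level of each member over the 9 libraries (vertical log axis, RPKM) against its rank, with large-subunit, small-subunit and other members in different colours and the medians of 3 gene groups as horizontal lines. A few members stand above 100, most lie between 10 and 100, and the members' median of 32.1 sits below those of the cytosolic ribosomal proteins (180) and oxidative phosphorylation subunits (433).

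The total of the mitoribosomal mRNAs changed little between groups. Summed over all 77 members, the level was 3590, 3777 and 3611 TMM-scaled CPM in the S libraries, 3679, 3233 and 3511 in T, with 3523, 3503 and 3705 in A + T. The groups overlapped, with means of 3660 ± 103, 3475 ± 225 and 3577 ± 111 (SD, n = 3). The ratio of large-subunit to small-subunit mRNA was 2.54 ± 0.0458 in S, 2.54 ± 0.0400 in T, with 2.53 ± 0.0263 in A + T, so the balance of the subunits differed between groups by less than its spread.

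One library stood below the others. Animal 12 of T was the lowest of its group for 57 of the 77 members, and its median member lay 0.16 below the S mean on the log2 scale, whereas animals 11 and 15 lay 0.0023 and 0.067 below it. Animal 12 was also the highest of T for the adipocyte genes Adipoq (15.63 TMM-scaled CPM) and Cfd (49.7), for Scgb1a1 (79.95), the atrial gene Nppa (3358) and the erythroid gene Alas2 (284.5). The part of these markers in its member values was not tested. In A + T, animals 20, 21 and 22 had medians of -0.03, -0.06 and 0.03. Animal 22 was the highest of its group for 46 of the 77 members and for Scgb1a1 (1079 TMM-scaled CPM). Of the cardiomyocyte markers, it was the lowest of A + T for Myh6 (13200), Tnnt2 (9303), Actc1 (4308), Ryr2 (1405) and Pln (6104). For Tnni3 (4377) it was the highest. What these markers had to do with the member values of animal 22 was not tested either.

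**Figure D2:**
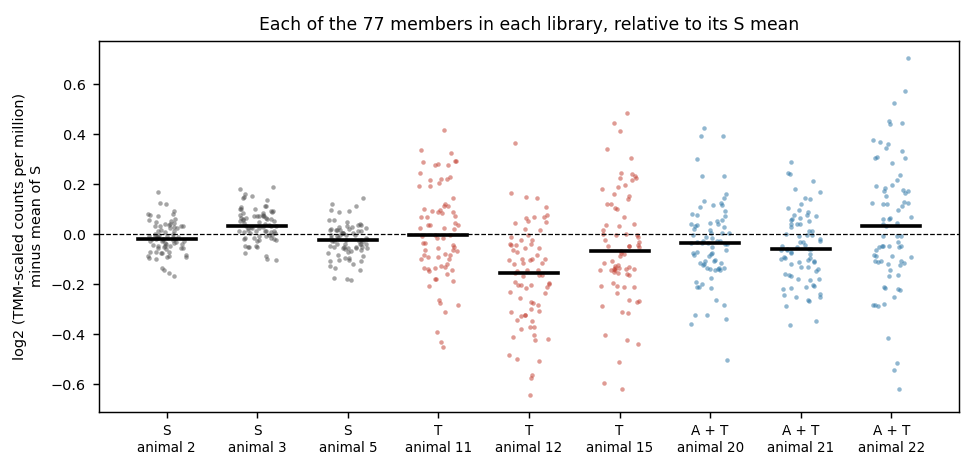
Log2 of the TMM-scaled CPM of each member, less its mean in S (vertical axis), for each of the 9 libraries, with 1 point per member and the median as a bar. The medians of the S libraries lie between -0.02 and 0.03, which are centred by construction, and animal 12 of T has the lowest median at -0.16.

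The first comparison asked how the hearts labelled T differed from those of sham mice. In all, 9 members fell and 1 rose at an adjusted P-value under 0.05 (edgeR quasi-likelihood test, Benjamini-Hochberg adjustment over 13364 genes). Mrpl19, Mrps2, Mrpl4, Mrpl34, Mrpl45, Mrps6, Mrpl12, Mrpl37 and Mrps25 were lower and Mrpl33 was higher. The 9 that fell were 11.7% of the members, near the 11% of all genes tested that fell. The 1 that rose was 1.3% of the members, below the 10.3% of all genes. The count of 10 became 6 without animal 2 of S, 5 without animal 3 or animal 5 of S, 5 without animal 12 of T and 4 with library totals alone. No log2 fold change of a member exceeded 0.54 in size in any of the 3 comparisons, under the 0.58 that a 1.5-fold change would give. At the thresholds that the study's methods set for its own gene list (a fold of at least 1.5 and an unadjusted P-value under 0.05), 0 members were called in T vs. S, beside 14.2% of all genes, and at an unadjusted P-value under 0.05 whatever the fold 3 members were higher and 16 lower, beside 17.3% and 18.1% of all genes.

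The members' median log2 fold change was -0.09, beside 0.00 over all genes tested, and 51 of the 77 were below 0. Without animal 12 of T the median was -0.046, and without animal 3 of S it was -0.060. In 23 members every T library lay below every S library, and in 3 every T library lay above, whereas 21.5% of all genes were apart downwards and 21.1% upwards. The 95% interval of the fold stayed within 1.5-fold either way for 70 of the 77 members and for 51.4% of all genes, a share that also depends on the counts behind each gene.

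Mrpl4, Mrps2, Mrpl19 and Mrpl34 kept an adjusted P-value under 0.05 in each of the 10 alternative settings and with each of the 9 libraries left out. Mrpl4 is a large-subunit protein of a family that lines the exit tunnel (chromosome 9, 21002738 to 21008839, plus strand of GRCm38). It was at 78.2, 83.2 and 77.5 TMM-scaled CPM in S, 64.1, 56.1 and 59.4 in T, with 63.0, 62.6 and 59.7 in A + T. All T and all A + T libraries lay below all S libraries, and T and A + T overlapped. Its log2 fold change in T vs. S was -0.41 ± 0.07 (SE, edgeR adjusted P = 0.00387), a level 24.9% lower.

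Mrps2, a small-subunit protein of a bacterial family (chromosome 2, 28468066 to 28471178, plus strand), was at 44.5, 44.0 and 48.5 in S, 33.8, 32.3 and 33.6 in T, with 36.4, 37.9 and 31.2 in A + T, on the same scale. The S libraries were again above all others. Its log2 fold change in T vs. S was -0.46 ± 0.09 (SE, edgeR adjusted P = 0.00499).

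Mrpl19, which in bacteria lies at the interface of the subunits (chromosome 6, 81957851 to 81965958, minus strand), showed the largest fall of any member. It was at 38.9, 37.5 and 34.3 TMM-scaled CPM in S, 27.0, 23.6 and 25.8 in T, with 31.8, 28.6 and 24.0 in A + T. Its log2 fold change in T vs. S was -0.54 ± 0.11 (SE, edgeR adjusted P = 0.00696), with the S libraries apart from both other groups. It was also the member nearest to a 1.5-fold change.

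Mrpl34, a small basic protein of the large subunit (chromosome 8, 71464959 to 71465747, plus strand), was at 39.1, 39.0 and 43.0 TMM-scaled CPM in S, 30.7, 27.1 and 33.6 in T, with 34.8, 33.9 and 34.6 in A + T. The 3 groups did not overlap, with A + T between T and S. The log2 fold change was -0.41 ± 0.09 in T vs. S (SE, edgeR adjusted P = 0.00984) and 0.18 ± 0.09 in A + T vs. T (edgeR adjusted P = 0.266), so the second step did not pass the test.

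The single rise was that of Mrpl33, a short large-subunit protein of a bacterial family. It was at 38.1, 44.2 and 36.7 TMM-scaled CPM in S, 52.9, 50.9 and 53.9 in T, with 52.0, 41.0 and 48.8 in A + T. All T libraries were above all S libraries, while A + T overlapped both. The log2 fold change in T vs. S was 0.40 ± 0.10 (SE, edgeR adjusted P = 0.0195). The call was lost without animal 2 or 5 of S or animal 11 of T, with library totals alone, and with an offset for gene length and GC content, and edgeR, DESeq2 and limma adjusted P-values ran from 0.00629 to 0.151 over the alternatives.

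The other 5 members that fell had smaller margins. Mrpl45, which anchors the ribosome to the inner membrane near the exit of the tunnel, was at 62.9, 65.5 and 63.9 TMM-scaled CPM in S, 53.4, 43.4 and 48.4 in T, with 53.4, 54.1 and 44.9 in A + T (log2 fold change T vs. S -0.41 ± 0.10, edgeR adjusted P = 0.0148). Mrpl12, the stalk protein that in mitochondria also binds the RNA polymerase, was at 111, 131 and 114 in S, 103, 89.0 and 95.2 in T, with 112, 105 and 116 in A + T (log2 fold change T vs. S -0.31 ± 0.09, edgeR adjusted P = 0.0315). The call of Mrpl45 was lost with library totals alone and without animal 3 of S or animal 12 of T (adjusted P-values up to 0.0535). That of Mrpl12 was lost with library totals alone and without animal 3 or 5 of S or animal 12 or 15 of T (up to 0.142). For Mrpl12, A + T lay above T without overlap and within the range of S for 2 of 3 libraries.

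Mrpl37, a large-subunit protein found only in mitochondria, had a log2 fold change of -0.27 ± 0.08 (SE, edgeR adjusted P = 0.0298), with 78.7 ± 1.36 TMM-scaled CPM in S, 65.0 ± 5.54 in T, with 63.9 ± 2.21 in A + T (SD, n = 3). Mrps6 (-0.35 ± 0.11, edgeR adjusted P = 0.0488) and Mrps25 (-0.27 ± 0.09, edgeR adjusted P = 0.0499) only just passed, and they lost the call in 11 and 14 of the 19 alternatives. Mrpl37 lost it with library totals alone and without any of the 3 S animals or animals 12 and 15 of T (adjusted P-values up to 0.156). Mrps6 shares 10.4% of its exonic bases with Slc5a3 on the same strand, and 8.85% of the 75-base stretches of Mrps25 recur in Gm42933. Only unique pairs were assigned, so reads from such bases could be lost from the counts of these members. Just outside the threshold were Mrpl10 (-0.24 ± 0.08, edgeR adjusted P = 0.0624) and Mrpl49 (-0.26 ± 0.09, edgeR adjusted P = 0.0632).

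**Figure D3:**
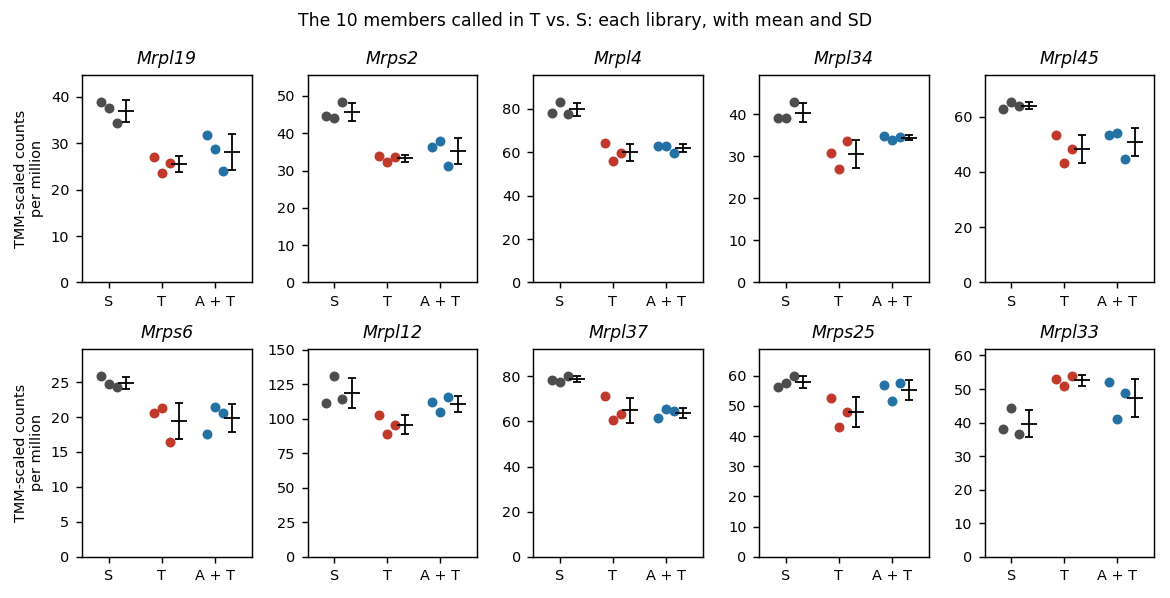
TMM-scaled CPM (vertical axes, from 0) of the 10 members with an adjusted P-value under 0.05 in T vs. S, in each library of S, T and A + T, with the mean and SD of each group beside the points. In each of the 10 members T and S do not overlap, Mrpl33 alone is higher in T, and for 7 of the 9 that fell, those other than Mrpl12 and Mrps25, the A + T libraries also lie below all S libraries.

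The promoters of the members were searched because many mitochondrial genes of the nucleus share short promoter motifs, so that members that move together can be looked at side by side. RefSeq start sites on GRCm38.p6 gave a window of 250 bases before and 50 after the start for 68 of the 77 members. The motif CCGGAAG, bound by the ETS factor GABP, was found on either strand in 25 of the 68 members (36.8%), in 9.93% of all 27025 genes with a window and in 19% of the 10143 of them that were tested here. GCGCATGC, bound by NRF1, was found in 8 members (11.8%), 3.05% of all genes and 5.76% of those tested. AAGATGGC, bound by YY1, was found in 12 members (17.6%), 3.19% and 5.08%. At least 1 of these 3 was found in 37 members (54.4%), 14.9% and 27%. CCAAT was found in 39.7% of members, 41.1% of all genes and 42.2% of those tested, the E-box CACGTG in 7.35%, 8.09% and 11.6%, AAGGTCA, read by ERR receptors, in 5.88%, 5.38% and 3.9%, and TATAAA in 7.35%, 15.7% and 9.05%. Only these exact letters were searched, so sites with variant letters were not counted. These shares are descriptions of letters in a window and say nothing of binding.

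Among the members called in T vs. S, 8 of 10 had a window, and 3 of these 8 held at least 1 of the first 3 motifs. The median log2 fold change in T vs. S was -0.07 for members with CCGGAAG and -0.09 for those without, -0.05 and -0.10 for GCGCATGC, and -0.10 and -0.08 for AAGATGGC. Members with and without these 3 motifs thus had similar medians, and for CCAAT the medians were -0.07 and -0.09. The gaps were wider for the motifs that few members held. They were -0.02 and -0.09 for CACGTG (5 members), 0.05 and -0.09 for AAGGTCA (4), and 0.01 and -0.09 for TATAAA (5). The 100 bases before the start are shown for Mrpl33, which rose, and for 3 members that fell, so that the differing make-up of their promoters can be seen. Capitals mark any of the 7 motifs searched.
Mrpl33: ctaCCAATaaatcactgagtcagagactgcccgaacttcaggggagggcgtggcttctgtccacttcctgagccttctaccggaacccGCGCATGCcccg
Mrpl34: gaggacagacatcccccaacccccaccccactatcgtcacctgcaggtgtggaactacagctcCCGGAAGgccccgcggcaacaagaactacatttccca
Mrps2: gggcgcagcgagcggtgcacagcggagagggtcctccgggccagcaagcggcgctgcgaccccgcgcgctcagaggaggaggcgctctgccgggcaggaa
Mrpl45: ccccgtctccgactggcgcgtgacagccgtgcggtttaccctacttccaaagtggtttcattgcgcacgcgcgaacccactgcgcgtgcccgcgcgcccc

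These stretches lie on the plus strand at chr5:31613851-31613950, chr8:71464826-71464925, chr2:28467966-28468065 and chr11:97315616-97315715. In Mrpl33 the NRF1 letters lie at -12 to -5 from the start and CCAAT at -97 to -93, and CCGGAAG follows from -3 across the start site. In Mrpl34 CCGGAAG lies at -37 to -31. Mrps2 and Mrpl45 held none of the 7 motifs in their exact letters in the shown stretch. Variants of the motifs, such as gcgcacgcgc in Mrpl45 beside the GCGCATGC searched for NRF1, were not counted.

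Of the members with a known place in the ribosome, the stalks and their bases had values of both signs. Besides Mrpl12, which fell, and Mrpl10 (the stalk base), which missed the threshold, Mrpl11 had a value of 0.19 ± 0.09 in T vs. S (log2 fold change, SE, edgeR adjusted P = 0.151) and Mrpl1 of -0.12 ± 0.08 (edgeR adjusted P = 0.307). Mrps12, at the decoding centre, had -0.15 ± 0.10 (edgeR adjusted P = 0.304). The 3 Mrps18 paralogs all had positive values in T vs. S: 0.20 ± 0.07 for Mrps18a (edgeR adjusted P = 0.0671), 0.09 ± 0.09 for Mrps18b (edgeR adjusted P = 0.532) and 0.25 ± 0.14 for Mrps18c (edgeR adjusted P = 0.246). A share of 26.7% of the 75-base stretches of Mrps18b recurs in the pseudogene Gm13552. Mrps30 lay near 0 (-0.03 ± 0.09). The 4 members tied to human cardiomyopathy, Mrpl3, Mrpl44, Mrps14 and Mrps22, had values of -0.19 ± 0.08, -0.11 ± 0.08, -0.15 ± 0.09 and -0.26 ± 0.14, none past the threshold.

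By subunit, 6 of the 50 large-subunit members fell and 1 rose in T vs. S, with a median of -0.09, and 3 of the 26 small-subunit members fell, with a median of -0.09. By family name, 6 of the 46 members of bacterial families fell and 1 rose (median -0.07), and 3 of the 30 of families named as mitochondrial fell (median -0.11). Members that fell were found in both subunits and in both kinds of family. Their share of each of these sets was 10% to 13%, near the 11% of all genes tested that fell.

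The second comparison, A + T vs. T, asked what differed in hosts labelled as treated. No member passed the threshold (0 of 77 by edgeR, and 0 also by DESeq2 and by limma-voom), beside 3.09% of all genes that rose and 2.79% that fell. At an unadjusted P-value under 0.05, 7 members were higher and 0 lower, beside 11.8% and 10.6% of all genes. The median log2 fold change was 0.07 (0.01 over all genes) and 49 members were above 0. Without animal 12 of T the median was -0.0072 and 36 members were above 0, and without animal 22 of A + T it was 0.017 with 43 above 0. With an offset for gene length and GC content the median was -0.04, beside -0.06 over all genes. The 95% intervals of all 77 members stayed within 1.5-fold either way, as did those of 60.1% of all genes, so a change of that size was outside the interval for each member. Under the study's own thresholds 0 members were called, beside 8.11% of all genes. Libraries of A + T and T were apart upwards for 8 members and downwards for 1, beside 12.3% and 13.1% of all genes.

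The highest value in A + T vs. T was that of Mrps36, the member that is not a ribosomal protein. Its level was 29.4, 31.8 and 29.0 TMM-scaled CPM in S, 31.8, 26.3 and 34.9 in T, with 39.5, 35.6 and 40.7 in A + T. All A + T libraries lay above all others, with a log2 fold change of 0.32 ± 0.11 vs. T (SE, edgeR adjusted P = 0.109) and 0.36 ± 0.11 vs. S (edgeR adjusted P = 0.0639). Of its 75-base stretches, 25.2% recur in pseudogenes such as Mrps36-ps2. The second highest value was 0.24 ± 0.10 for Mrps28 (edgeR adjusted P = 0.170), which was 26.3, 26.5 and 26.3 in S, 25.4, 20.4 and 23.9 in T, with 26.1, 26.6 and 29.7 in A + T. Among the 10 members called in T vs. S, the values in A + T vs. T ran from -0.15 for Mrpl33 to 0.21 for Mrpl12. Both comparisons use the T libraries, so opposite signs arise in part from T alone.

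The third comparison set A + T against S. Mrpl4, Mrps2 and Mrpl37 were lower and 0 members were higher at an adjusted P-value under 0.05, beside 3.64% of all genes that fell and 4.67% that rose. The log2 fold changes were -0.37 ± 0.07 (SE, edgeR adjusted P = 0.0171) for Mrpl4, -0.38 ± 0.09 (edgeR adjusted P = 0.0285) for Mrps2 and -0.30 ± 0.08 (edgeR adjusted P = 0.0412) for Mrpl37. All 3 had also fallen in T vs. S, a comparison that shares the S libraries. The count of 3 became 0 without animal 2 or animal 3 of S, 1 without animal 5 of S and 1 without animal 22 of A + T. It was 7 by DESeq2 (5 lower and 2 higher), 4 with upper-quartile factors (3 lower and 1 higher) and 0 with library totals alone. With 1 of the 9 libraries left out in turn, Mrpl4 kept its call in 7 fits, Mrps2 in 5 and Mrpl37 in 2.

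Just outside the threshold, Mrpl52, a short large-subunit protein found only in mitochondria, was at 16.8, 15.02 and 13.2 TMM-scaled CPM in S, 18.8, 16.7 and 19.8 in T, with 20.04, 18.2 and 24.3 in A + T. Its log2 fold change of 0.48 ± 0.13 was the largest positive one of any member in the 3 comparisons (SE, edgeR adjusted P = 0.0517). It ranged from 0.16 with the offset for gene length and GC content to 0.57 across the alternatives. Mrpl19 (-0.39 ± 0.11, edgeR adjusted P = 0.0519) and Mrpl45 (-0.34 ± 0.10, edgeR adjusted P = 0.0584) missed the threshold in the other direction. Over all members the median was -0.02 (0.00 over all genes), 33 were above 0, and 18 had an unadjusted P-value under 0.05, 7 of them higher and 11 lower, beside 13.6% and 12.5% of all genes. Without animal 22 the median was -0.05, and without animal 21 it was -0.0060. Libraries were apart upwards for 12 members and downwards for 21, beside 16% and 16.5% of all genes. The interval stayed within 1.5-fold for 73 members and for 57.3% of all genes, and at the study's thresholds 0 members were called, beside 8.91% of all genes.

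**Figure D4:**
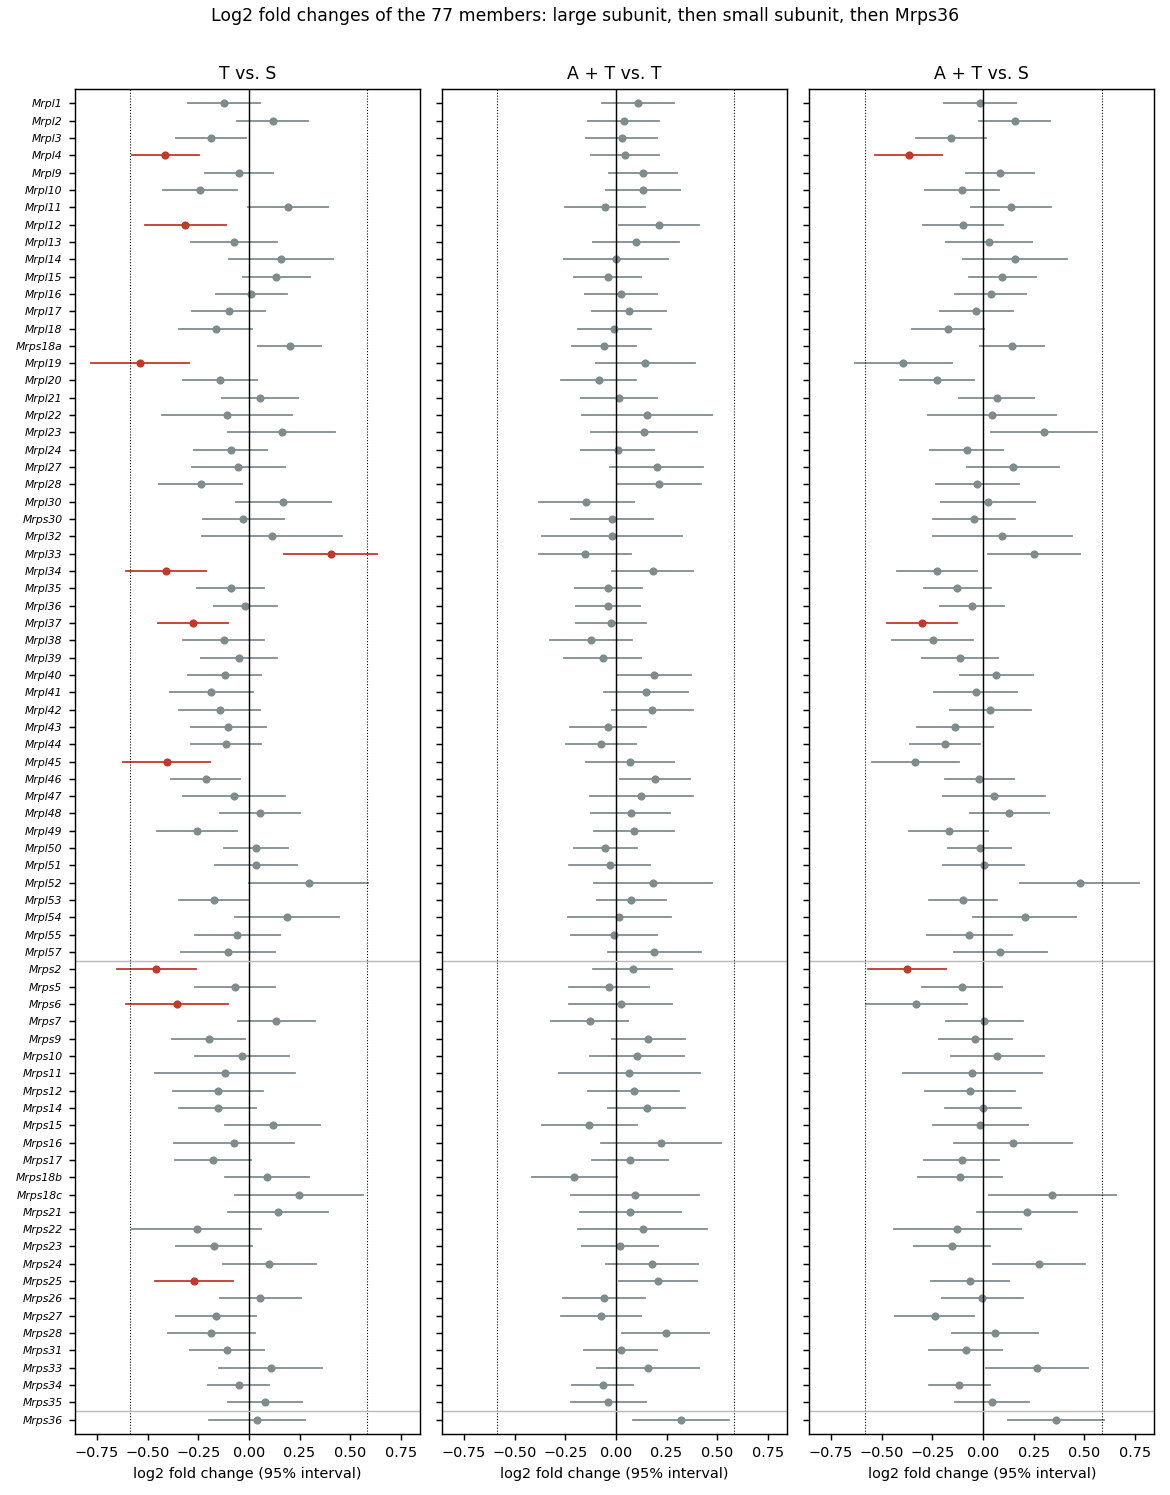
Log2 fold change of each of the 77 members with its 95% interval (horizontal axis), with 1 panel for each comparison, grouped by subunit, with members past an adjusted P-value of 0.05 in red and dotted lines at a 1.5-fold change. The left panel has 10 members in red, the middle 0 and the right 3, and no estimate crosses a dotted line.

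Shorter members had higher fold changes than longer ones in both comparisons with S. Of the 31 members with a gene length under 1000 bases, 19 were above 0 in A + T vs. S, with a median of 0.04. Of the 46 longer members, 14 were above 0, with a median of -0.05. Over all genes tested, 622 of 848 shorter ones were above 0 (median 0.16), and the longer ones had a median of -0.01, a gap wider than that of the members. In T vs. S the medians were -0.05 for the shorter and -0.11 for the longer members, and in A + T vs. T they were 0.07 and 0.05. Across the 77 members, which share libraries and are not independent replicates, Spearman's rho between log2 fold change and length was -0.368 for T vs. S, -0.101 for A + T vs. T, while A + T vs. S gave -0.436. Over all 13364 genes it was -0.0865, -0.0606 and -0.155. Animal 22 of A + T had medians of 0.18 for the shorter and -0.05 for the longer members relative to S. With the offset for gene length and GC content the count in T vs. S was again 10, with 8 genes shared, and 0 were higher.

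**Figure D5:**
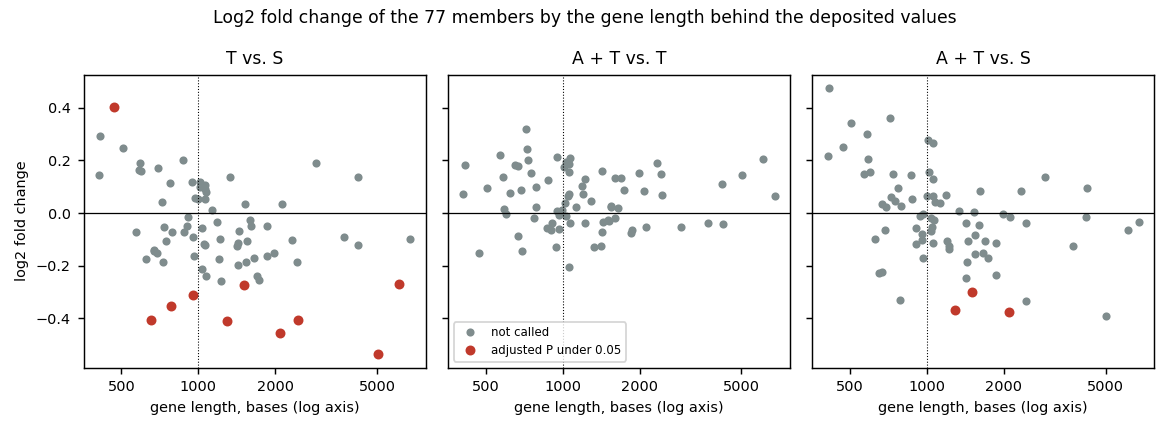
Log2 fold change of each member (vertical axis) against the gene length behind the deposited values (horizontal log axis, bases) in the 3 comparisons, with members past an adjusted P-value of 0.05 in red and a dotted line at 1000 bases. In the left and right panels the members under 1000 bases lie higher than the longer ones, with medians of -0.05 against -0.11 and 0.04 against -0.05.

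Other genes of the pathway were counted from fixed lists. Of all genes tested, 21.2% were called in T vs. S, 5.88% in A + T vs. T and 8.31% in A + T vs. S. The proteins of the mitochondrial ribosome with other symbols, such as Dap3, Ptcd3 and Ict1 (the release factor Mrpl58), gave 0 calls among 6 tested genes in each of the 3 comparisons, with 0, 0 and 1 at an unadjusted P-value under 0.05. Among 15 factors of mitochondrial translation, 4 fell and 0 rose in T vs. S: Mtif2, the initiation factor (-0.40 ± 0.11, edgeR adjusted P = 0.0309), Tsfm, the exchange factor of elongation (-0.39 ± 0.12, edgeR adjusted P = 0.0424), Mtrf1l, a release factor (-0.51 ± 0.15, edgeR adjusted P = 0.0362), and Taco1, an activator of Cox1 translation (-0.54 ± 0.14, edgeR adjusted P = 0.0193). The 4 were 26.7% of the 15, beside 11% of all genes tested that fell. None of the 15 passed in either comparison of A + T.

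Of 26 tested genes of assembly and ribosomal RNA modification, 3 fell and 0 rose in T vs. S. Mrm1, a methyltransferase of the large ribosomal RNA, had the largest fall (-0.86 ± 0.10, edgeR adjusted P = 0.000519), beside Rnmtl1, the methyltransferase also called Mrm3 (-0.52 ± 0.15, edgeR adjusted P = 0.0279), and Noa1, a GTPase of assembly (-0.39 ± 0.11, edgeR adjusted P = 0.0362). Mrm1 was also lower in A + T vs. S (-0.55 ± 0.10, edgeR adjusted P = 0.0117). It was the 1 gene of the list called there (3.85%, beside 3.64% of all genes that fell). Of 4 genes of mitochondrial transcription, Tfam, which packages mitochondrial DNA, fell in T vs. S (-0.23 ± 0.07, edgeR adjusted P = 0.0356) and Tfb2m rose (0.28 ± 0.07, edgeR adjusted P = 0.0129). Each was 25% of these 4, beside 11% of all genes that fell and 10.3% that rose.

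Among 10 regulators, 3 rose (30%) and 1 fell (10%) in T vs. S, beside 10.3% and 11% of all genes. In A + T vs. T 1 rose and 1 fell (10% each), beside 3.09% and 2.79%. In A + T vs. S 1 rose and 1 fell (10% each), beside 4.67% and 3.64%. Ppargc1a, a coactivator of mitochondrial genes, was higher in T vs. S (0.79 ± 0.23, edgeR adjusted P = 0.0325) and lower in A + T vs. T (-0.97 ± 0.23, edgeR adjusted P = 0.0367). Myc rose in T vs. S (1.33 ± 0.17, edgeR adjusted P = 0.000815) and in A + T vs. S (1.43 ± 0.17, edgeR adjusted P = 0.00244), and Yy1 rose in T vs. S (0.26 ± 0.07, edgeR adjusted P = 0.0321). Mycn, at a mean of 4.19 TMM-scaled CPM in S, fell in T vs. S (-3.18 ± 0.31, edgeR adjusted P = 0.000184) and in A + T vs. S (-1.50 ± 0.26, edgeR adjusted P = 0.00958), and rose in A + T vs. T (1.68 ± 0.33, edgeR adjusted P = 0.0200). Nrf1, Gabpa and Esrra, whose proteins act on many mitochondrial promoters, passed the threshold in none of the 3 comparisons.

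Beside the 10 calls among the 77 members in T vs. S, 6 of the 77 genes listed by symbol as cytosolic ribosomal proteins rose and 0 fell. The 6 were 7.79%, below the 10.3% of all genes tested that rose. Their list had a median of 0.33 against -0.09 for the members. In A + T vs. S, 29 cytosolic ribosomal proteins (37.7%) rose and 0 fell, beside 4.67% of all genes that rose (median 0.48 against -0.02). In A + T vs. T 0 passed, with 4 at an unadjusted P-value under 0.05 (median 0.16 against 0.07). The 79 genes listed by symbol as subunits of oxidative phosphorylation gave 0 rises and 2 falls in T vs. S (median 0.07). The falls, of Ndufa4l2 and Uqcrfs1, were 2.53% of the list, beside 11% of all genes that fell. In A + T vs. T they gave 0 calls, with 14 at an unadjusted P-value under 0.05 (median 0.10). In A + T vs. S they gave 9 rises (11.4%, beside 4.67% of all genes) and 0 falls (median 0.15). These groups had shorter genes than the members, with median lengths of 714 and 696 bases against 1059, and the difference between the groups was not tested.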

How the data were processed

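RNA of 9 mouse hearts, 3 per group, was analysed. Per the study's methods, libraries from enriched mRNA were sequenced as pairs of 75 bases, mapped by the authors to mm10 with STAR and assigned to refGene genes with featureCounts, by strand and from unique pairs. The authors deposited raw counts and log2 values. The deposited log2 values equalled edgeR log2 values scaled by TMM and gene length (prior count 2, median SD 1.66e-05 over libraries). The labels number separate animals. Genes under 0.5 CPM in more than 4 libraries were removed, which left 13364 of 13890.

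Deposited counts were fitted with edgeR 4.0.16 (quasi-likelihood test, TMM, all 9 libraries, 2-sided) in R 4.3.3, with Benjamini-Hochberg adjustment over all genes tested. A standard error was the fold change over the root of F. The fits were tested on simulated data, in which large changes were mostly called and small ones mostly were not. DESeq2 1.42.0, limma 3.58.1, other scalings, filters and left-out libraries were alternatives. Positions and shared 75-base stretches came from GENCODE M21 (GRCm38), promoters from RefSeq (GRCm38.p6). The cytosolic list took symbols beginning with Rpl or Rps and a number, without symbols marked as pseudogenes, kinases and some paralogs named as -like. It was not taken by known membership, so it can hold other paralogs and genes that are not ribosomal proteins. The oxidative phosphorylation list was taken by symbol (Nduf, Sdh, Uqcr, Cox and Atp5 patterns), not by known membership. It can thus hold paralogs such as Ndufa4l2 and miss subunits. The members and all lists were chosen with earlier results of these data known. Members were named if among the 5 largest changes past the threshold each way, if they had a stated role, or if highest or lowest in level. Mrps6, Mrps25, Mrpl37 in T vs. S, Mrpl49 and the uncalled Mrpl52, Mrps28 and Mrpl19, and the lists' genes named, were chosen after their values were seen. The study's table of fold changes was used only to check the labels.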

Additional observations from a re-analysis of the deposited data

How the results depend on the processing

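The 10 alternative settings and 9 left-out libraries kept the sign of the T vs. S median, which ranged from -0.13 to -0.05. The 10 calls in T vs. S became 4 with library totals alone and 5 to 12 with 1 library left out (6 without animal 2 of S, 5 without animal 3 or 5 of S, 5 without animal 12 of T). In A + T vs. T the count was 0 throughout. Its median was -0.042 with the offset for gene length and GC content, and -0.0072 to 0.089 with 1 library left out. The 3 calls in A + T vs. S became 7 by DESeq2, 0 with library totals alone, 5 with at least 10 counts in every library, 6 with the length and GC offset and 0 to 4 with 1 library left out, and the median became -0.13 with that offset. The A + T vs. S median was 0.0023 with upper-quartile factors. The causes were not tested. Where leaving out a library left a group with 2, all groups shared 1 estimate of the spread. With 3 hearts a group, effects of the size seen here can be missed. No paired analysis was possible because the labels number the animals without shared numbers.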
